A study of Homo sapiens with 15 samples.

Results

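MT-2 cells, an HTLV-1-transformed CD4+ T-cell line, were compared after 48 hours with and without high-dose ascorbic acid (AA, vitamin C), at 100 µg/ml. The comparison rests on 6 of the 15 arrays of the series, chosen by their labelled condition, namely 3 arrays of high-dose AA and 3 of untreated cells. The other 9 arrays hold cells given AA at 10 µg/ml (the low dose) or 50 µg/ml (the intermediate dose), or 1000 IU/ml of IFN-α. All cells came from this single, virus-infected line and were grown in RPMI medium with foetal calf serum, so the arrays show the response of 1 line and not of patient cells. A tag in the sample titles ties each treated array to the untreated array of the same experiment, and the experiments are called 1, 2 and 3 here. The design text of the series calls the replicates separate experiments. The tags of experiments 2 and 3 differ by a letter only, so how independent these experiments were is not known. The Affymetrix Human Gene 1.0 ST Array was used, which reports a log2 value for each of 28926 transcript clusters, its unit for a gene. All differences below are on that log2 scale, as high-dose AA minus untreated. RNA of all cells of a culture was pooled, so fewer cells with a transcript and less of it per cell cannot be told apart.

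Ascorbic acid enters cells through sodium-coupled transporters, and its oxidized form, dehydroascorbate, enters through glucose transporters such as GLUT3. Inside the cell it keeps the iron of many dioxygenases reduced, among them the enzymes that hydroxylate collagen, HIF and methylated DNA. In culture medium, high concentrations of ascorbic acid can also generate hydrogen peroxide. Cells that run short of amino acids or are under endoplasmic reticulum stress raise the transcription factor ATF4, which switches on amino acid transporters, amino acid synthesis and the regulators CHOP, TRIB3 and CHAC1. Chemokines such as CCL1 and CXCL10 are secreted by activated T cells and attract other leukocytes, and miR-155 is a microRNA that is abundant in activated and virus-transformed lymphocytes.

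The labelled cell type was compared with its markers in the untreated cells. All 5 markers of HTLV-1-transformed cells lay above the middle of the array's values, and IL2RA (CD25), the interleukin-2 receptor chain that such lines carry in abundance, had a mean of 13.30, higher than 99.8% of all clusters. Of 9 CD4+ T-cell markers 4 lay above the middle and none below the lower quartile. CD4 stood at 10.93, and the T-cell receptor chains CD3D, CD3E and CD3G at 5.68, 5.26 and 5.25. Of markers of other cells, none of 5 for monocytes lay above the middle, 1 of 4 each for B cells and fibroblasts, 2 of 6 for CD8 T and NK cells and 2 of 4 for epithelial cells. COL1A1 at 8.25, KRT18 at 7.66 and NKG7 at 7.13 read higher than the CD3 chains, although probes of different genes are not on a common scale. No marker of any cell type checked was called changed by high-dose AA.

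The strongest evidence of lower expression fell on the cluster that covers the microRNA gene MIR155 and its host transcript MIR155HG. The cluster carries both names, so the precursor of the microRNA and the host transcript were not measured apart. The mature microRNAs of this gene are shown because they are the product by which it acts, with the seed (bases 2 to 8), which pairs with target messages, in capitals; RefSeq places both on the plus strand of chromosome 21 in GRCh38.p14, at chr21:25573983-25574006 and chr21:25574022-25574043.
hsa-miR-155-5p: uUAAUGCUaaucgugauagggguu
hsa-miR-155-3p: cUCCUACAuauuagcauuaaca

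The untreated arrays of experiments 1, 2 and 3 read 10.73, 10.51 and 10.40 for this cluster, and the high-dose arrays 10.04, 10.08 and 9.92. All treated arrays lay below all untreated ones, and the treated arrays lay close together. The difference was -0.53 ± 0.07 (SE, n = 3 per group, limma with experiment as a block, adjusted p = 0.0692). It was -0.54 without high-dose AA replicate 3, and the cluster was also called without the block.

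High-dose AA was tested against untreated cells with limma in a model of all 15 arrays with the experiment as a block. A cluster is called lower or higher where its two-sided p, before adjustment, is under 0.001, as the methods of the study set it. By this rule 193 of 28926 clusters (0.667%) were called, 67 lower (0.232%) and 126 higher (0.436%), where 28.9 are expected if nothing changes. The 193 include 12 that repeat the values of another called cluster, so not all are separate measurements. In this model no cluster passed a Benjamini-Hochberg adjusted p under 0.05, and the smallest adjusted p was 0.0692; 4673 clusters had an unadjusted p under 0.05. Some other settings passed a few clusters at an adjusted p under 0.05, namely 12 without the dimmest 25% of clusters, 3 with a trended and robust variance, 1 among clusters with 1 symbol, 14 and 9 without high-dose AA replicate 1 or 2, and 3 without experiment 3. Without the block 75 clusters were called, 20 lower and 55 higher, and 66 of them were among the 193. After quantile normalization 115 were lower and 109 higher, against 67 and 126 as deposited. A call in this model is therefore a rank among weak signals, and no single gene in it stands after correction for the number of clusters. The words rose and fell below mean called in this sense.

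The 193 calls named 48 genes that fell and 46 that rose, counting clusters with 1 gene symbol. All 193 moved in the same direction in the 3 experiments, and in 173 the treated and untreated values did not overlap, which the choice by p in part fixes. Over all clusters 26.5% moved in the same direction in the 3 experiments, and the share without overlap was not counted. The calls toward higher values were less well named, since 59 of 126 had no gene symbol, against 10 of 67 toward lower values and 7864 of all 28926 clusters. They were also dimmer, with 39 of 126 in the dimmest 25% of clusters against 6 of 67.

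The experiments differed widely in how much changed. In experiment 1 the treated and untreated array differed by over 1 in 66 clusters and in experiment 2 in 51, within the 16 to 134 clusters that separated untreated arrays of different experiments from each other. In experiment 3 it was 1586 clusters, 446 lower and 1140 higher. The share of clusters beyond 0.5 was 3.56%, 1.74% and 25.7% in experiments 1, 2 and 3, and 0.978% to 4.06% between untreated arrays.

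**Figure D1:**
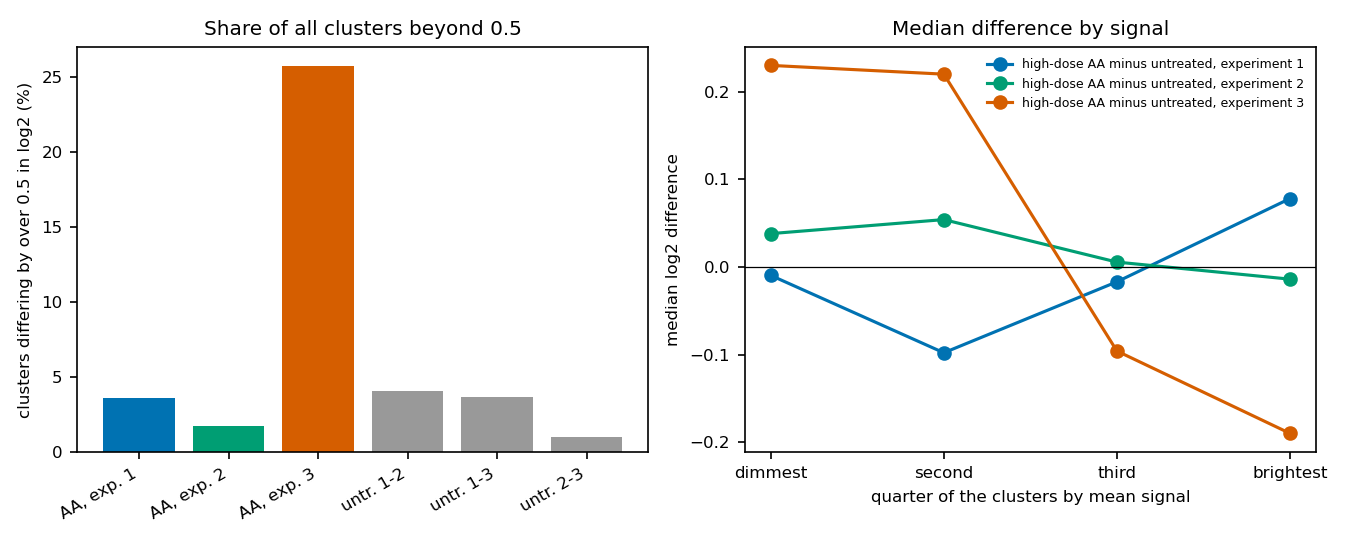
The left panel shows the share of all clusters (%) that differ by over 0.5 in log2 between the treated and untreated array of each experiment (coloured bars) and between pairs of untreated arrays (grey bars); experiment 3 reaches 25.7% and the other bars lie between 0.978% and 4.06%. The right panel shows the median log2 difference, high-dose AA minus untreated, for the clusters in 4 equal bins of mean signal; in experiment 3 it goes from 0.23 in the dimmest to -0.19 in the brightest bin.

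The array behind this, high-dose AA replicate 3, stood apart from all others. Its mean correlation with the other arrays was 0.976, against 0.991 to 0.995, and the SD of its values was 2.02, against 2.12 to 2.18. Its change ran with signal, with a median of 0.23 in the dimmest 25% of clusters and -0.19 in the brightest. Quantile or cyclic loess normalization removed this slope, with medians of -0.011 and -0.028 and of 0.00053 and 0.0061, but left the SD of the changes at 0.485 and 0.461, against 0.514 as deposited. What set this array apart was not tested.

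Across clusters, the changes of experiments 2 and 3 had a correlation of 0.494, those of experiments 1 and 2 of 0.0828, and those of experiments 1 and 3 of -0.074. Clusters are not independent of each other, so these values describe the arrays only. A set of 17 clusters was lower by over 0.5 in every experiment and 81 were higher. When high-dose AA replicate 3 was left out, 140 clusters were called, 37 lower and 103 higher, and these held 88 of the 193, of which 24 were lower and 64 higher. Leaving out untreated replicate 3 left 51 calls, and leaving out high-dose AA replicate 1 gave 524.

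Among chemokines, CCL1 rose, the ligand of CCR8 and a product of activated T cells. CCL1 read 7.33, 9.37 and 9.41 on the untreated arrays and 9.55, 10.69 and 10.86 with high-dose AA. The treated arrays were all above the untreated ones, although the untreated array of experiment 1 was itself far below the other untreated arrays. CCL1 rose by 2.22, 1.32 and 1.45 in the 3 experiments, and the fitted difference of 1.66 ± 0.22 (SE) had the smallest p among clusters with 1 symbol (limma adjusted p = 0.0692). Without the block the spread between untreated arrays entered the error and CCL1 was not called (adjusted p = 0.441). Without high-dose AA replicate 3 the difference was 1.69.

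CXCL10, an interferon-inducible chemokine that binds CXCR3, also rose. Its untreated values were 7.27, 7.87 and 7.88 and its treated values 8.31, 8.25 and 9.02. The groups did not overlap, and the lowest treated array was that of experiment 2. The difference was 0.85 ± 0.17 (SE, limma adjusted p = 0.134), and the call was lost without high-dose AA replicate 3, where the difference was 0.69, and without the block. Of the 15 chemokines measured these were the 2 called, the other 13 were not, and the list had a median of 0.085, against -0.006 over all 18377 genes. None of 24 cytokines was called, with a median of 0.02 that turned to -0.0045 after quantile normalization; IL23A read 7.35, 7.20 and 7.25 untreated and 7.25, 7.43 and 7.83 treated.

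Among the lymphocyte activation antigens, IL23R and CD69 rose. IL23R, the receptor chain that binds interleukin-23, read 5.87, 5.49 and 5.90 untreated and 6.64, 6.22 and 6.83 with high-dose AA. The treated arrays lay above all untreated arrays, and the rises of 0.78, 0.73 and 0.93 were alike in size. The fitted difference was 0.81 ± 0.12 (SE, limma adjusted p = 0.0692), and IL23R was called without the block and without high-dose AA replicate 3 too. CD69, an early activation antigen of lymphocytes, read 4.21, 4.56 and 4.52 untreated and 4.79, 5.14 and 5.27 treated, with a difference of 0.64 ± 0.10 (SE, limma adjusted p = 0.0692). These values lay below the lower quartile of the array in untreated cells, so CD69 moved at a level among the lowest on the array. The other 13 antigens of this list were not called, among them GIMAP4 with 0.34 (limma adjusted p = 0.18). A cluster shared by GIMAP5 and the readthrough GIMAP1-GIMAP5 rose by 0.42 ± 0.07 (SE, limma adjusted p = 0.108).

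**Figure D2:**
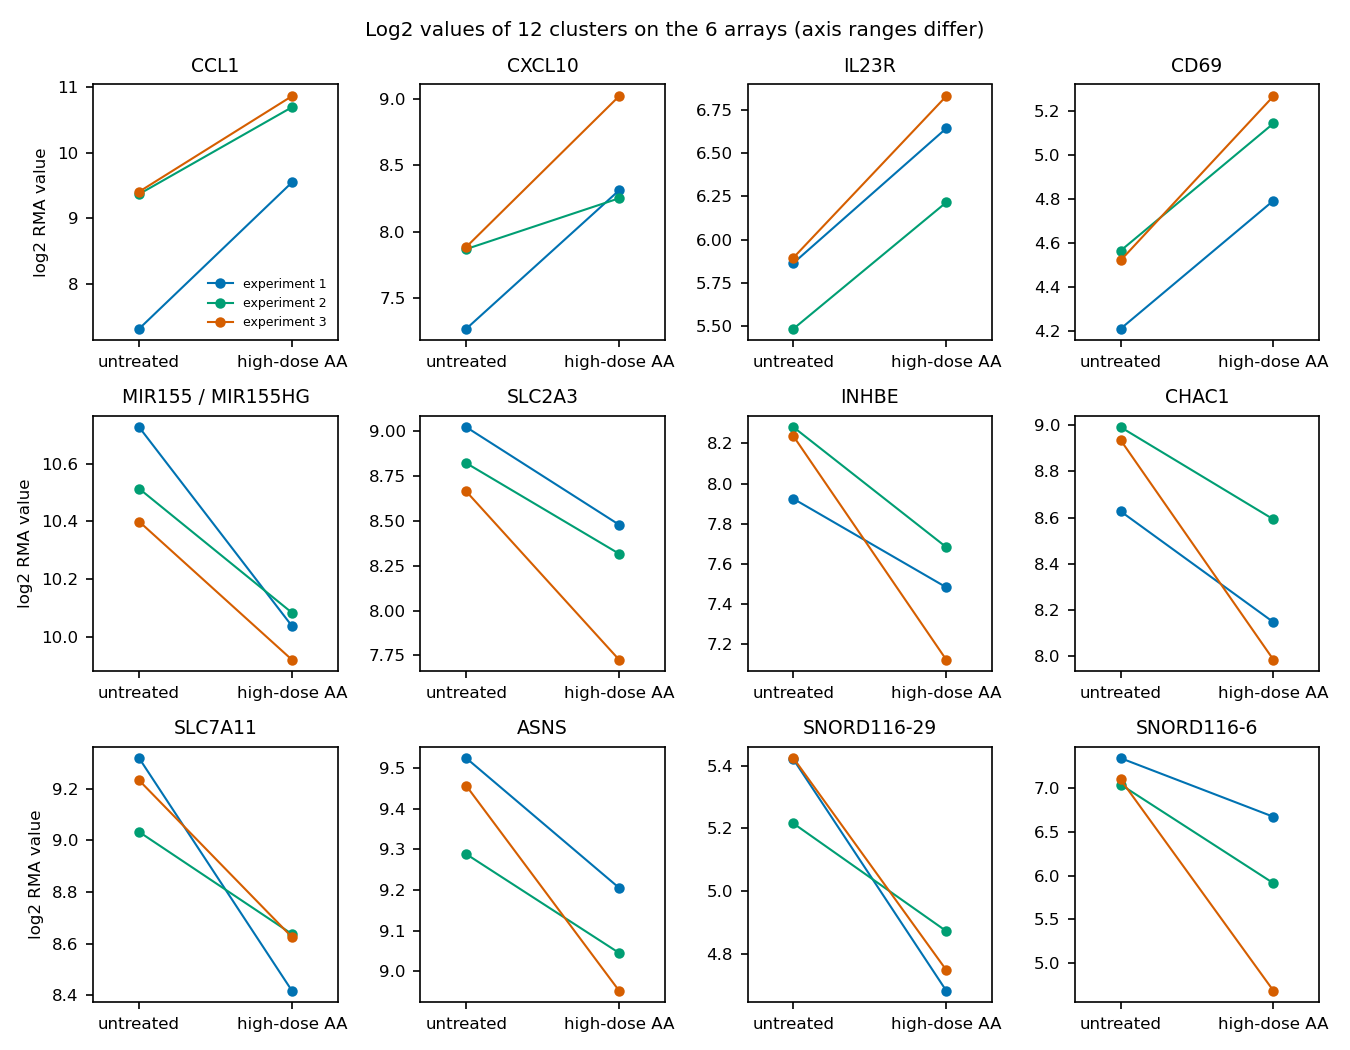
Log2 values of 12 clusters on the 3 untreated and 3 high-dose AA arrays, with a line joining the arrays of an experiment and axis ranges that differ between panels. The 4 clusters of the top row rise and the other 8 fall in every experiment, and SNORD116-6 falls farthest in experiment 3, from 7.10 to 4.68.

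The genes that fell included several that ATF4 is known to switch on. INHBE, a secreted inhibin beta chain induced by amino acid shortage, read 7.92, 8.28 and 8.24 untreated and 7.48, 7.68 and 7.12 with high-dose AA. The groups did not overlap, and the lowest value was that of experiment 3. The difference was -0.72 ± 0.12 (SE, limma adjusted p = 0.0835). CHAC1, which degrades glutathione, read 8.63, 8.99 and 8.94 untreated and 8.15, 8.59 and 7.98 treated, and fell by 0.61 ± 0.11 on the log2 scale (SE, limma adjusted p = 0.107). The groups did not overlap, and without the block CHAC1 was not called (adjusted p = 0.385). SLC7A11, the cystine importer that feeds glutathione synthesis, read 9.32, 9.03 and 9.23 untreated and 8.42, 8.64 and 8.63 treated, with a difference of -0.64 ± 0.12 (SE, limma adjusted p = 0.118). For SLC7A11 the decrease was largest in experiment 1, with -0.90, against -0.40 and -0.61. INHBE and SLC7A11 were called without the block, and INHBE, CHAC1 and SLC7A11 without high-dose AA replicate 3.

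STC2, a secreted glycoprotein, ASNS, which makes asparagine, and SLC6A9, a glycine transporter, fell as well. STC2 read 9.30, 9.25 and 9.35 untreated and 8.78, 8.70 and 7.49 treated, so that experiment 3 alone contributed -1.87. Its difference was -0.98 ± 0.21 (SE, limma adjusted p = 0.134) and -0.66 without high-dose AA replicate 3, where STC2 was still called. ASNS read 9.52, 9.29 and 9.46 untreated and 9.21, 9.05 and 8.95 treated, and SLC6A9 8.80, 8.96 and 9.06 against 8.47, 8.70 and 8.30. All 3 genes were lower on every treated array than on every untreated array. The differences of ASNS and SLC6A9 were -0.36 ± 0.07 and -0.45 ± 0.10 (SE, limma adjusted p = 0.134 and 0.135). Both calls were lost without high-dose AA replicate 3, where the differences were -0.29 and -0.38, and without the block, as was that of STC2.

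The lists of these pathways, chosen with earlier results of these data known, had medians below 0. Of 14 ATF4 stress regulators 1 was called lower, 13 had a difference below 0 and the median was -0.30, with -0.20, -0.22 and -0.56 in experiments 1, 2 and 3. DDIT3, which encodes CHOP, read 8.96, 8.71 and 8.98 untreated and 8.62, 8.53 and 7.95 treated without being called (limma adjusted p = 0.149). TRIB3 had differences of -0.35, -0.32 and -0.33 and was not called either (adjusted p = 0.166). Of 6 secreted ATF4 targets 2 were called lower, 4 lay below 0 and 2 above, with a median of -0.39 that became -0.22 without experiment 3 and -0.17 without the genes the study tabulates. Of 13 amino acid transporters 2 were called lower and 11 lay below 0, with a median of -0.25. That median was -0.077, -0.16 and -0.41 in the 3 experiments, -0.13 without high-dose AA replicate 3 and -0.086 without experiment 3. Of 15 enzymes of amino acid and folate metabolism 1 was called lower and 13 lay below 0, with a median of -0.22. CTH, the last enzyme of cysteine synthesis, read 10.24, 9.58 and 9.53 untreated and 9.16, 9.02 and 9.11 treated, a drop in every experiment that missed the threshold (limma adjusted p = 0.147). Over all 18377 genes the median was -0.006, with 46 called lower and 45 higher.

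The aminoacyl-tRNA synthetases and the endoplasmic reticulum chaperones held no called gene. Of 19 synthetases 17 lay below 0 with a median of -0.10, and of 19 chaperones 16 with a median of -0.18. XBP1, a transcription factor of the unfolded protein response, read 10.16, 10.24 and 10.31 untreated and 9.99, 10.08 and 9.68 treated. For both lists most of the shift came from experiment 3, with medians of -0.27 and -0.38, against 0.0079 and -0.03 in experiment 1.

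ATF4 binds, with a C/EBP partner, to a composite element whose core reads TGATGNAA. The element was searched for on both strands in the 250 bases upstream of the RefSeq gene starts in GRCh38.p14, where 3.14% of 35116 windows held it. Of the 6 called genes of these pathways 4 had a window, and the element was found for CHAC1 and ASNS but not in the windows of SLC6A9 and STC2. ASNS had 2 windows and 1 match, so its other window lacked the element. The upstream stretches with a match are shown because they are the promoters of called genes in which these letters lie, with the match in capitals, each read along the strand of the gene. That of CHAC1 is chr15:40953221-40953320 on the plus strand, with the match on the opposite strand, 209 to 202 bases before the start. That of ASNS is chr7:97872409-97872508 on the minus strand, with the match 68 to 61 bases before the start.
CHAC1: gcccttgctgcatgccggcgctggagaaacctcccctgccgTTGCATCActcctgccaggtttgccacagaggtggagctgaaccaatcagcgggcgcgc
ASNS: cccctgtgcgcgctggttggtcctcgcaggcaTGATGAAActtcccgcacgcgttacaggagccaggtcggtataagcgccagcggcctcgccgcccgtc

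Of 27305 genes with a window 1061 held the element (3.89%), and of the 40 such genes of the 4 lists 9 did (22.5%). The lists were built from genes known to respond to ATF4, so this share describes the lists. A match shows that the letters are present and not that ATF4 was bound in these cells.

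**Figure D3:**
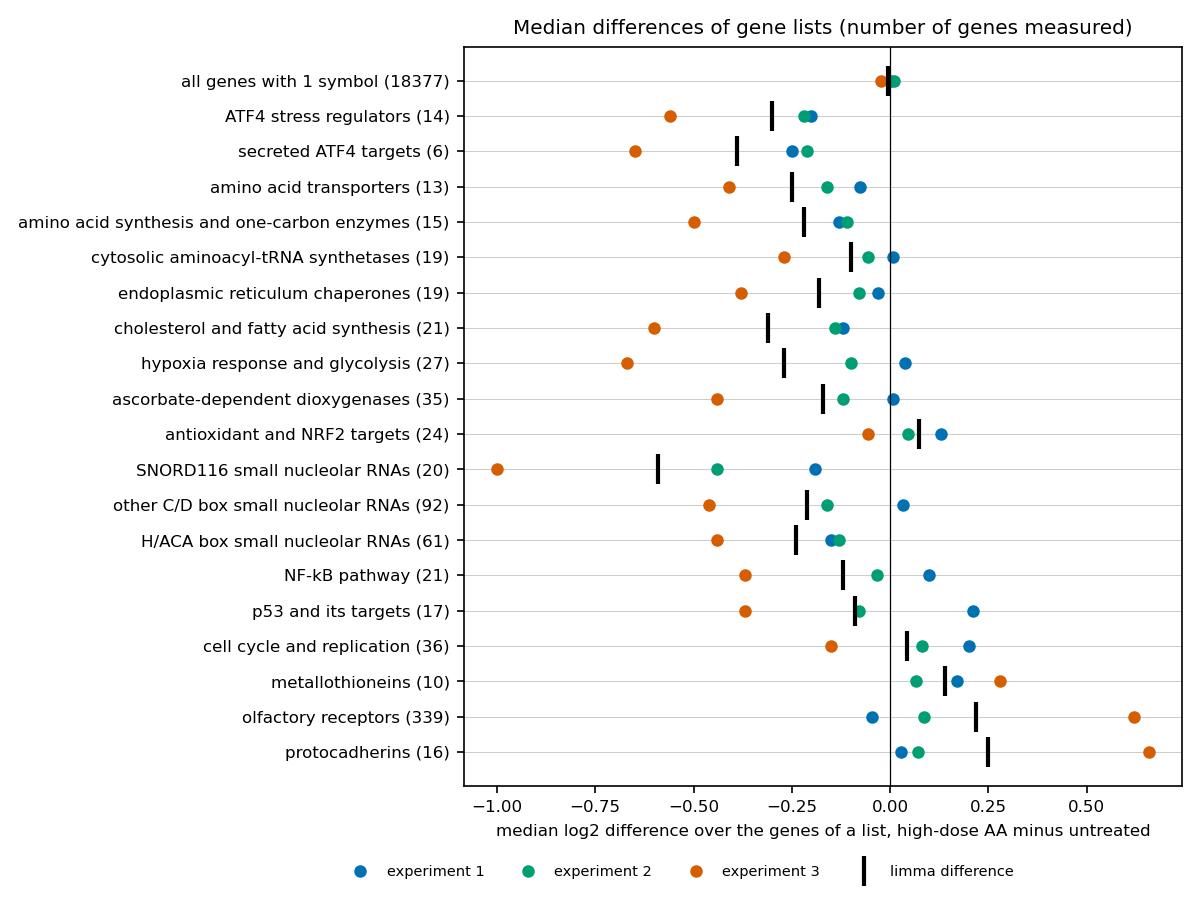
Median log2 difference, high-dose AA minus untreated, over the genes of each list in experiments 1, 2 and 3 (coloured points) and in the limma fit (black bar), with the number of genes measured in brackets. All genes lie near 0 (median -0.006), the ATF4 lists lie below 0 in all 3 experiments, and experiment 3 is the farthest from 0 for most lists.

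SLC2A3, which encodes the glucose and dehydroascorbate transporter GLUT3, fell. It read 9.02, 8.82 and 8.67 on the untreated arrays and 8.48, 8.32 and 7.73 with high-dose AA. The groups did not overlap, and the decrease exceeded 0.5 in every experiment. The difference was -0.66 ± 0.11 (SE, limma adjusted p = 0.0958), and -0.60 without high-dose AA replicate 3, with the call kept, while the call was lost without the block. The other 12 genes of vitamin C transport and recycling were not called. SLC2A1, the related transporter GLUT1, read 11.26, 11.47 and 11.40 untreated and 11.38, 11.22 and 10.29 treated, so that its drop lay in experiment 3.

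The lists of enzymes that use ascorbate and of genes of the hypoxia response and glycolysis held no call. Of 35 ascorbate-dependent dioxygenases 28 lay below 0, with medians of 0.0075, -0.12 and -0.44 in the 3 experiments. Of 27 genes of the hypoxia response and glycolysis 25 lay below 0, with medians of 0.039, -0.10 and -0.67. ALDOC, a glycolytic aldolase, read 10.67, 10.31 and 10.43 untreated and 10.67, 9.85 and 7.72 treated. The decrease was thus absent in experiment 1 and steep in experiment 3. VEGFA, which is induced by hypoxia and by ATF4, read 9.28, 9.32 and 9.47 untreated and 9.06, 8.99 and 8.18 treated, with no overlap and no call (limma adjusted p = 0.176).

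Genes of cholesterol and fatty acid synthesis lay lower with no call among 21. In this list 20 lay below 0 and 18 were lower in all 3 experiments, with medians of -0.12, -0.14 and -0.60. CYP51A1, a demethylase of the sterol pathway, read 10.46, 10.01 and 10.11 untreated and 10.01, 9.61 and 8.15 treated. SCD, which introduces the double bond into fatty acids, read 12.52, 12.05 and 12.14 against 12.28, 11.72 and 11.18. Values of both genes overlapped between the groups, since experiment 1 started higher.

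Of the antioxidant genes and targets of NRF2 none of 24 was called and the list had a median of 0.074. GSR, glutathione reductase, read 10.71, 10.88 and 10.83 untreated and 11.02, 10.92 and 10.998 treated, without a call (limma adjusted p = 0.291). All 10 metallothioneins, which bind zinc and copper, lay above 0, again with no call and a median of 0.14. The 16 heat shock genes had a median of 0.033 and the 15 iron genes of 0.007, with no call in either list.

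Small nucleolar RNAs, which guide chemical modification of other RNAs, lay lower as a class. The median over 178 snoRNA clusters was -0.26, with -0.044, -0.15 and -0.47 in the 3 experiments, 6 called lower and none higher. The SNORD116 family, C/D box RNAs made from an imprinted cluster on chromosome 15, lay farthest down, with 20 of 20 below 0 and a median of -0.59. Its medians in the 3 experiments were -0.19, -0.44 and -1.0, and 5 of 20 were called lower. Over all clusters 0.232% were called lower. SNORD116-29 read 5.42, 5.22 and 5.42 untreated and 4.68, 4.87 and 4.75 treated, with a difference of -0.58 ± 0.11 (SE, limma adjusted p = 0.113). SNORD116-6 read 7.35, 7.04 and 7.10 untreated and 6.67, 5.91 and 4.68 treated, a difference of -1.41 ± 0.31 (SE, limma adjusted p = 0.139). Neither overlapped between the groups, and both were called without high-dose AA replicate 3, with -0.60 and -0.89, while SNORD116-6 and SNORD116-11 lost theirs without the block (adjusted p = 0.422 for each). The calls of SNORD116-11, SNORD116-13 and SNORD116-27 were lost without that array, and the median of the family was then -0.42. The copies of SNORD116 are alike in sequence, so their clusters may share signal and are not independent.

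Of 92 other C/D box snoRNAs none was called and 73 lay below 0, with a median of -0.21. This median was 0.033, -0.16 and -0.46 in the 3 experiments, -0.12 without high-dose AA replicate 3 and -0.035 without experiment 3. Of 61 H/ACA box snoRNAs 54 lay below 0, with a median of -0.24, and SNORA71D was called lower. SNORA71D read 11.48, 10.88 and 11.06 untreated and 11.05, 10.62 and 10.40 treated, which overlapped between the groups and fell within each experiment. The call of SNORA71D was lost without the block. Small RNAs of this length are measured from total RNA on this array. The paper's methods name the RNeasy kit for the extraction, and how well it kept RNAs this short was not tested.

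Membrane proteins were also among the genes that fell. BEST1, a chloride channel, read 6.90, 7.23 and 7.20 untreated and 6.50, 6.64 and 6.51 with high-dose AA, with a difference of -0.56 ± 0.08 (SE, limma adjusted p = 0.0692). The groups did not overlap, and BEST1 was also called without the block and without high-dose AA replicate 3. CD226, an adhesion and co-stimulatory receptor of T and NK cells, read 7.65, 7.15 and 6.94 untreated and 7.19, 6.44 and 5.96 treated. These values overlapped between the groups, and CD226 fell within each experiment, by 0.72 ± 0.13 on the log2 scale (SE, limma adjusted p = 0.104), with no call without the block. CD40, a receptor of the TNF family, read 7.16, 7.37 and 7.33 untreated and 6.997, 6.96 and 6.67 treated, a difference of -0.41 ± 0.09 (SE, limma adjusted p = 0.146). CD40 was not called without high-dose AA replicate 3 (-0.32) or without the block, and was the only 1 of 22 HTLV-1-associated and regulatory T-cell markers to be called, in a list with a median of -0.19. The medians of that list were 0.027, -0.10 and -0.51 in the 3 experiments, and -0.091 without high-dose AA replicate 3.

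Other genes that fell were NRXN3, a synaptic adhesion protein (-0.71), IGSF9B, an immunoglobulin-superfamily protein (-0.56), CRYBG3 (-0.61), C9orf72 (-0.47), SH3D21 (-0.41), ITGBL1 (-0.44), SULF1, a heparan sulfate sulfatase (-0.38), and PGBD1 (-0.30), at limma adjusted p values of 0.113 to 0.139. A second, brighter cluster of IGSF9B differed by -0.27, overlapped between the groups and was not called (limma adjusted p = 0.192). NRXN3 read 7.64, 7.52 and 7.75 untreated and 6.99, 6.90 and 6.89 treated, and the groups lay apart. Without high-dose AA replicate 3 the calls of NRXN3, CRYBG3, ITGBL1, SULF1 and PGBD1 were lost (limma adjusted p of 0.205 to 0.27), with differences of -0.69, -0.57, -0.40, -0.35 and -0.26, close to those with it, and without the block those of IGSF9B, CRYBG3, C9orf72, ITGBL1 and PGBD1. Clusters shared by TRIM43 and TRIM43B, which the array does not part, fell by 0.33, 0.35 and 0.44 on the log2 scale. Other genes fell but lost their call without high-dose AA replicate 3. Those named here were picked for the largest change in experiment 3, so a large decrease there follows from the choice. They include SCARNA12, a guide RNA of Cajal bodies, with -0.84, -0.35 and -1.47, and PTPRB, a receptor phosphatase, with -0.52, -0.63 and -1.42. TMEM154 had -0.57, -0.37 and -1.16, and LGALS17A -0.56, -0.46 and -1.11. ATM, the kinase that responds to DNA breaks, had -0.27, -0.52 and -1.05. Without that array the differences were -0.60 for SCARNA12, -0.72 for PTPRB, -0.54 for TMEM154, -0.62 for LGALS17A and -0.47 for ATM, in place of -0.89, -0.85, -0.70, -0.71 and -0.62. They kept their direction, at limma adjusted p values of 0.284 to 0.327, and none of them was called without the block.

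Of the genes that rose, TLE4, a transcriptional co-repressor, read 8.42, 8.64 and 8.58 untreated and 9.04, 8.88 and 9.01 treated, a difference of 0.43 ± 0.08 (SE, limma adjusted p = 0.118). GNG4, a G-protein gamma subunit, read 9.60, 9.64 and 9.66 untreated and 9.97, 9.91 and 9.99 treated, with a difference of 0.33 ± 0.06 (SE, limma adjusted p = 0.134). Both stood well above the middle of the array, did not overlap between the groups, and were called without the block and without high-dose AA replicate 3. RPS24, a protein of the small ribosomal subunit, rose by 0.43 and its call too was kept in both, and RPL26L1, which lost its call without the block, by 0.34 (limma adjusted p = 0.134 and 0.138). They were the 2 called of 65 ribosomal protein genes, whose median was -0.061. H1-1, a linker histone, rose by 0.46 (limma adjusted p = 0.134), lost its call without high-dose AA replicate 3 (adjusted p = 0.25) and was the only 1 of 55 replication-dependent histone genes called.

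Many genes that rose were dim. TLL1, OPRPN, MGP, KYNU, OR51L1, OOSP2 and TAS2R9 had untreated means of 5.13, 4.50, 3.57, 4.06, 4.55, 4.19 and 3.88, below the lower quartile of the array, 5.20 to 5.29 in untreated cells. KYNU, an enzyme of tryptophan breakdown, read 4.21, 4.02 and 3.94 untreated and 4.50, 4.53 and 4.96 treated. MGP, a matrix inhibitor of calcification, read 3.67, 3.56 and 3.48 against 4.17, 3.88 and 4.41. Neither overlapped between the groups, at levels among the lowest on the array. Families not known for T cells had medians above 0, chiefly in experiment 3. Of 339 olfactory receptor genes 317 lay above 0 and 210 below the lower quartile, with medians of -0.047, 0.087 and 0.62 in the 3 experiments; 3 were called higher, against 0.436% of all clusters, and 1 without high-dose AA replicate 3. Of 16 protocadherins 1 was called, with medians of 0.028, 0.07 and 0.66. After quantile and cyclic loess normalization the olfactory receptor median of 0.22 became 0.12 and 0.14, and without high-dose AA replicate 3 it was 0.056.

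Most clusters that rose by a wide margin in every experiment had no gene name. Of the called clusters that rose by over 0.5 in every experiment, 40 in all, 30 carried no symbol, 6 carried 1 and 4 several. The 59 unnamed clusters called higher had differences of 0.34 to 2.32, and medians of 0.65, 0.60 and 1.20 in the 3 experiments; 34 of them were called without high-dose AA replicate 3 and 24 without the block. Of the named ones REXO1L1P, a pseudogene of a multicopy family, read 7.50, 7.27 and 7.52 untreated and 8.20, 8.78 and 10.93 treated. MTND2P28, a nuclear copy of a mitochondrial gene, read 9.58, 10.00 and 10.19 against 10.57, 10.92 and 12.78. Both rose in every experiment and by far the most in experiment 3, and copies elsewhere in the genome can share their signal. The calls of MTND2P28, SLC9B1, HSD3BP4 and IGKC were lost without high-dose AA replicate 3, and that of REXO1L1P was kept; without the block none of these 5 was called.

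Lists of genes of cell death and division held no call, although ATM and the MIR155 cluster, outside them, were called above. The paper proposes MIR155 and several other genes as likely behind cell death, from a network built at a looser threshold. Its direct evidence of cell death in this line does not come from the arrays. By flow cytometry it reports DNA degradation that rose with the AA dose, and by microscopy nuclear condensation. Per the paper, RNA was taken while most cells were still viable, so treated cultures could hold dying cells. Whether the lists below reflect that cell death was not tested. Of 15 BCL2 family genes, 25 death receptors, caspases and their inhibitors, 17 p53 targets and 36 cell cycle genes none passed the threshold, with medians of -0.067, -0.10, -0.089 and 0.042. The experiments differed in sign, with 0.064, -0.064 and -0.24 for the death receptor list, 0.21, -0.079 and -0.37 for the p53 list and 0.20, 0.082 and -0.15 for the cell cycle list. Without high-dose AA replicate 3 these 3 medians were -0.045, -0.0092 and 0.14. BID, a death-promoting member of the BCL2 family, read 8.66, 8.75 and 8.58 untreated and 8.82, 8.87 and 9.01 treated (limma adjusted p = 0.199). CDKN1A, the p21 cell cycle inhibitor, read 9.52, 10.35 and 10.25 untreated and 9.75, 10.15 and 9.32 treated, up in experiment 1 and down in the others. CCNA2, a cyclin of S phase, read 10.69, 10.58 and 10.65 against 10.90, 10.77 and 11.03, without overlap and without a call (limma adjusted p = 0.188).

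Lists of signalling and interferon genes held no call either, although CXCL10, GNG4, CD40 and other signalling genes outside them were called above. None of 21 NF-kB pathway genes, 22 T-cell receptor signalling genes, 20 AP-1 and early growth factors and 30 interferon-stimulated genes was called, with medians of -0.12, 0.045, -0.12 and -0.037. In the 3 experiments the NF-kB median was 0.10, -0.033 and -0.37 and the AP-1 median 0.091, -0.066 and -0.23, and without high-dose AA replicate 3 they were -0.04 and -0.038. BIRC2, an inhibitor of apoptosis in NF-kB signalling, read 9.74, 9.92 and 10.00 untreated and 9.55, 9.62 and 9.30 treated. IRF9, the DNA-binding subunit of the interferon-activated complex, read 8.21, 8.44 and 8.33 against 8.03, 8.15 and 7.29. Both genes were lower on every treated array, at limma adjusted p values of 0.149 and 0.164. The median of the T-cell receptor list turned to -0.044 and -0.032 after quantile and cyclic loess normalization. The 28 respiratory chain genes and 24 proteasome genes had medians of -0.022 and 0.026 and no call, and the first turned to 0.014 and 0.016 under these normalizations and to 0.10 without high-dose AA replicate 3.

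The lower AA doses were set beside the high dose for the genes described, as values without a test, since all doses share the untreated arrays. For CHAC1 the means at 0, 10, 50 and 100 µg/ml were 8.85, 8.75, 8.50 and 8.24, and for INHBE 8.15, 7.95, 7.68 and 7.43. For the MIR155 cluster they were 10.55, 10.32, 10.12 and 10.01, and for SLC7A11 9.20, 8.98, 8.64 and 8.56. These means went down with each dose, although neighbouring doses overlapped between arrays in most cases, as at 50 and 100 µg/ml for SLC7A11, which read 8.69, 8.77 and 8.46 at the lower of the 2. CCL1 had means of 8.70, 10.17, 10.02 and 10.36, so that most of its difference from untreated cells was present at 10 µg/ml. IL23R had means of 5.75, 6.001, 6.003 and 6.56, and only at 100 µg/ml did all its arrays lie above every untreated array.

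**Figure D4:**
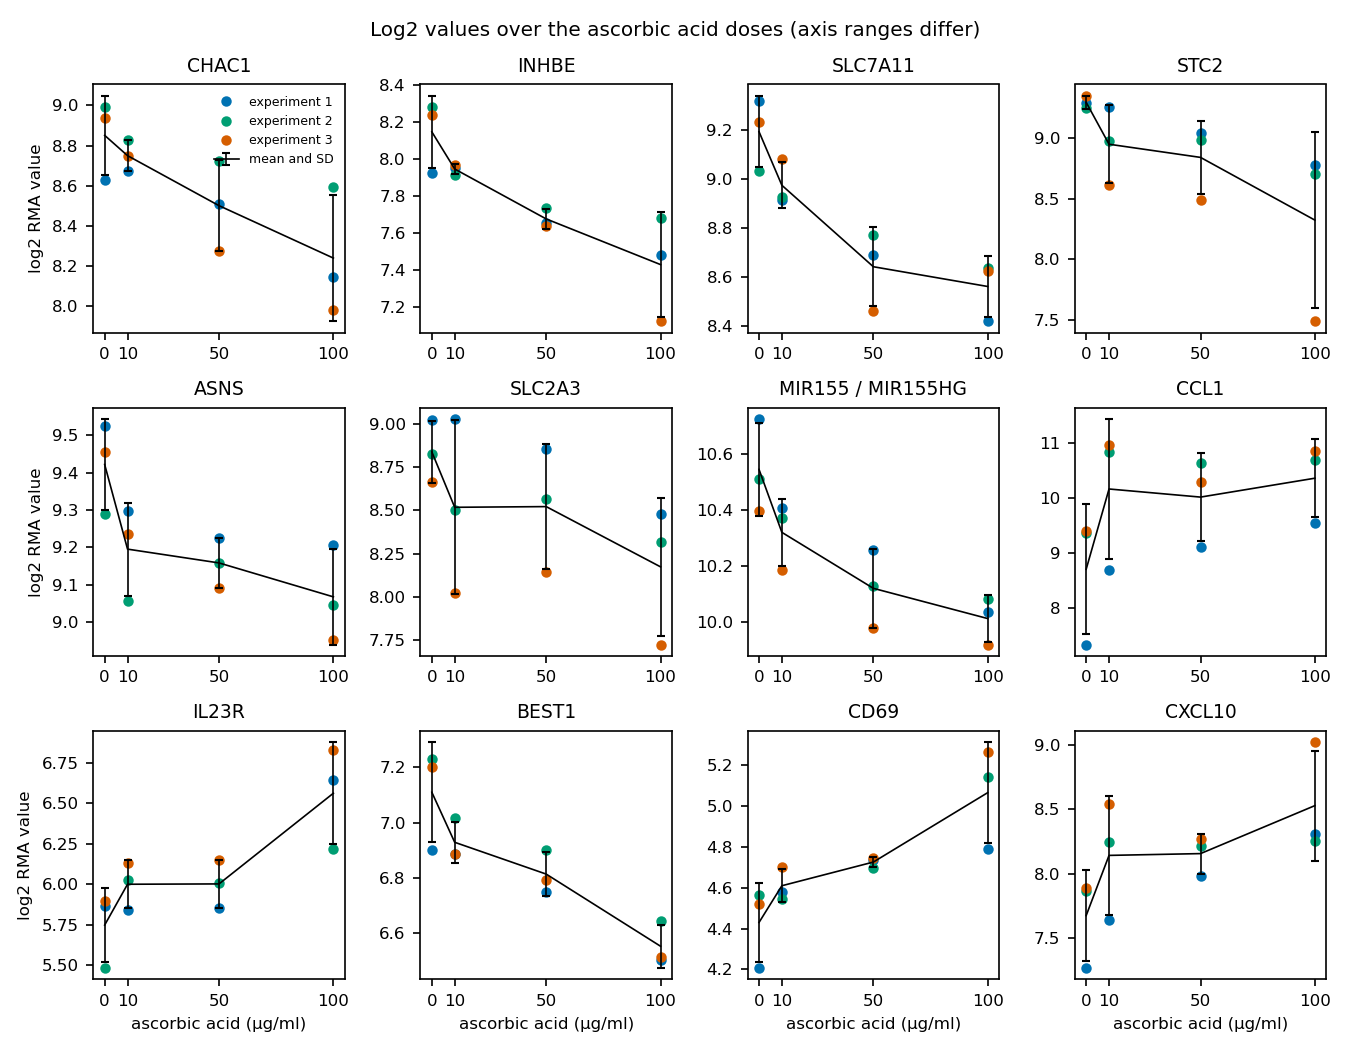
Log2 values of 12 clusters at 0, 10, 50 and 100 µg/ml of ascorbic acid, with a point for each array coloured by experiment, the mean and SD of 3 arrays in black, and axis ranges that differ between panels. Means of CHAC1, INHBE, SLC7A11 and the MIR155 cluster step down with dose, while CCL1 is already at 10.17 with 10 µg/ml, against 8.70 untreated.

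The study tabulates 39 distinct genes for the high dose, selected on these same arrays, so their directions here are no independent evidence. Of 20 tabulated as lower 16 had a cluster of their own and 15 of these were called lower, and of 19 tabulated as higher 17 had a cluster and 16 were called higher. Without high-dose AA replicate 3 the called numbers were 7 and 10, and without the block 9 and 16. ZC2HC1B, tabulated under an older symbol, read 4.53, 4.43 and 4.29 untreated and 4.87, 4.76 and 5.28 treated, a rise of 0.55 at a dim level (limma adjusted p = 0.134). TOB2 and RIOX2 were not called, with differences of -0.10 and 0.06 and no common direction over the experiments. The study's entries for TOB2 name differing chromosomes, and the match here was by symbol only. The TOB2 cluster read here may therefore not be one that the study tabulated.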

How the data were processed

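Total RNA of MT-2 cells was hybridized to 15 arrays, and 6 of them are compared here. The authors deposited log2 values per transcript cluster, made by RMA with the xps package, per the paper's methods (RMA in general subtracts background, quantile-normalizes arrays and summarizes probes); no genome build is given in the sources used here, and raw intensities were not analysed here. Clusters were named by the array annotation, which gave 1 symbol to 19310 of 28926 clusters, several to 1752 and none to 7864; 18377 genes resulted, each represented in lists by its brightest cluster. The values of 546 clusters repeat those of a cluster listed before them.

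Values were fitted with limma 3.58.1 in R 4.3.3 over all 15 arrays, with condition and experiment as terms (8 residual and 4.2 prior degrees of freedom). The paper's methods name limma and the threshold of 0.001 and no block, and the fit without it stands beside. The pairing comes from the tag in the titles. After removal of condition means, arrays of the same experiment had a median correlation of 0.281 (-0.194 to 0.536) and those of different experiments -0.172; the untreated and high-dose arrays of experiments 1, 2 and 3 had 0.0281, 0.369 and -0.194. The design text of the series calls the replicates separate experiments. Nothing in the sources used here says whether they were separate cultures, so p measures the spread between these samples.

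The comparison, its members, the gene lists and the tests were chosen with earlier results of these data known. Genes named are up to 12 per direction with the smallest p and the same sign in all experiments, up to 4 members per list, the genes the study tabulates, up to 6 per direction with the largest smallest change, and up to 6 per direction whose call was lost without high-dose AA replicate 3. The genes with a lost call were ranked by the size of their change in experiment 3. Lists are described by counts and medians with no test. The fit was tested on simulated data with independent clusters and, for each cluster, the same spread on all arrays. Since high-dose AA replicate 3 stands apart here, that simulation cannot vouch for the calls. Alternatives were no block (or a random one with statmod 1.5.0), the 6 arrays alone, other variance, weights, normalization, filters and thresholds, and leaving out arrays or experiments. Sequences are from RefSeq (GRCh38.p14). Precision is limited by 3 arrays per group. Figures were drawn with matplotlib 3.10.9.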

Additional observations from a re-analysis of the deposited data

How the results depend on the processing

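The number of calls depended on the model. Without the replicate block 75 clusters were called (20 lower, 55 higher), 7 in the 6 arrays alone with the block (0 and 7, with 1195 at an unadjusted p under 0.05 in limma) and 7 without it (4 and 3), and 63 with array weights (18 and 45). Quantile normalization gave 115 lower calls and 109 higher, so that the lower share rose, and clusters with 1 symbol gave 62 higher calls. At an unadjusted p under 0.005 there were 787 (293 and 494), under 0.01 1372 (526 and 846), and at an adjusted p under 0.05 0 (0 and 0), against 12 without dim clusters, 3 with a trended and robust variance, 1 among clusters with 1 symbol, 14 and 9 without high-dose AA replicate 1 or 2, and 3 without experiment 3. Leaving out an array or an experiment gave 40 to 524 calls, 12 to 148 lower and 28 to 376 higher; the lowest came without experiment 2 (replicate 2 of every condition) and the highest without high-dose AA replicate 1. The cause was not tested. A random block, a trended variance, cyclic loess and no dim clusters kept the counts within 1.5 times. The 63 called clusters named by the rule kept their direction under all alternatives run, and none kept its call under all of them; 61 lost it in the 6 arrays with the block, 45 without untreated replicate 3 and 32 without high-dose AA replicate 3. With a high-dose array or an experiment left out, the medians of 20 of 40 lists changed sign, all of them at most 0.13 in size. Those of NF-kB genes ranged from -0.20 to 0.001, AP-1 from -0.18 to 0.0054, p53 from -0.29 to 0.03, cell cycle from -0.042 to 0.14, respiratory chain from -0.091 to 0.12, proteasome from -0.054 to 0.12, T-cell receptor from -0.052 to 0.09, chemokines from -0.0086 to 0.13, heat shock genes from -0.016 to 0.062, tabulated genes of both directions (0.064) from -0.031 to 0.16, with -0.41 without dim members, and activation antigens (0.0085) from -0.029 to 0.035, with -0.0051 (quantile), -0.059 without dim members and -0.0032 without tabulated genes.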
